A study of Mus musculus with 12 samples.

Results

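Nqo1, Hmox1, Gclc, Gclm, Srxn1, Txnrd1, Osgin1, Aldh3a1, Cbr3 and Slc7a11 are redox genes known as targets of the transcription factor NRF2. Their 10 rows were taken by gene symbol from a table of 56941 genes, and all 10 passed the filter on low counts that left 13168 genes. They were picked because Nqo1, Hmox1 and Aldh3a1 were already known to be low in one line of these cells and uneven between wells of the other, so their differences are given as a description, with no test.

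The cells were C2C12, mouse myoblasts that fuse into myotubes with many nuclei in differentiation medium. An optogenetic line with genotype ChR2::tdTomato, a light-gated cation channel joined to a red fluorescent protein, was set against a wild-type line, with 6 wells and 6 libraries for each. Both lines grew on fibrin gels of 1 mm, held for 2 days in growth medium and then for 6 days in a differentiation medium with horse serum, IGF-1 and aminocaproic acid. The labels mention no light for these wells and do not say whether they were separate cultures, so a p-value covers only the spread from well to well. Transgene and line history cannot be told apart, and the transgene itself was not analysed here.

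NRF2, encoded by Nfe2l2, is held in the cytoplasm and sent to the proteasome by the adaptor KEAP1. Oxidants and electrophiles modify cysteines of KEAP1, NRF2 then accumulates, pairs with a small MAF protein and binds antioxidant response elements, which the repressor BACH1 also occupies. Its targets make glutathione, reduce thioredoxin and quinones, break down heme and clear reactive carbonyls, and in muscle they act against the oxidants made during contraction and differentiation.

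Promoter windows show where letters of the antioxidant response element stand in these genes. RefSeq windows on GRCm38.p6, from 250 bases before to 50 bases after each start, were at hand for 7 members and 9 starts, 3 of them of Txnrd1. Hmox1, Gclc and Aldh3a1 had no entry. The core TGACNNNGC was searched on both strands, with TGAGNNNGC as a form that differs at 1 base and TGATGNAA as a form bound by ATF4 with its C/EBP partners. The stretches below give 1 match for each member that held the core or its variant form, with Slc7a11 shown by its TGATGNAA matches. Capitals mark the match, and positions count from the first transcribed base as 0 to the most upstream base of the match.
Srxn1, position -45, chr2:152105464-152105502, plus strand: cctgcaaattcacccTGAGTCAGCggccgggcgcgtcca
Osgin1, position -99, chr8:119437033-119437071, minus strand: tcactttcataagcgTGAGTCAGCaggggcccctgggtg
Gclm, position -134, chr3:122245408-122245446, minus strand: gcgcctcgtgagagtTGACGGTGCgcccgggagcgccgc
Txnrd1, position -92, chr10:82859099-82859137, minus strand: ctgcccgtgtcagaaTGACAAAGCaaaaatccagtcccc
Slc7a11, position -66, chr3:50443657-50443694, minus strand: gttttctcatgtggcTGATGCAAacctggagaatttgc
Slc7a11, position -47, chr3:50443638-50443675, plus strand: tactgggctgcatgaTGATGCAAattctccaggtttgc

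Srxn1 and Osgin1 held the same 9 letters, TGAGTCAGC, and Srxn1 held 2 further matches. Slc7a11 was the member with TGATGNAA, on each strand, and it also held a TGAGNNNGC match. No match overlapped another. Among all 32851 windows of this length, 12.4% held TGACNNNGC, 17.6% held TGAGNNNGC, 27.8% held at least 1 of these forms and 3.97% held TGATGNAA. A match is a description of letters and not a site, and the windows of Nqo1 and Cbr3 held none of these letters within their 300 bases.

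Depth and RNA makeup differed between libraries. Total estimated counts ran from 7388761 to 12229458 in ChR2 and from 10268067 to 13628569 in wild-type wells 1, 3, 4 and 6, but were 1061068 in well 2 and 2809669 in well 5. Those wells also held 24.8% and 8.37% of 7SL RNA, a transcript without a poly(A) tail, against at most 0.0341% elsewhere, so values without them are given beside the main ones. Some samples with little RNA were ribodepleted, per the labels, which do not say whether these wells were among them, so a second kind of library preparation cannot be told apart from these wells. Summed markers of muscle cells ran from 11050 to 12890 CPM (counts scaled to library size) in ChR2 and from 9515 to 25640 CPM in wild type, or to 15580 CPM without wells 2 and 5. Of the 10 muscle markers 3 were called lower in ChR2 by edgeR at an adjusted p under 0.05, as were 14.1% of all genes. Each of the 10 reached 1 CPM in at least 1 well. Markers of proliferating myoblasts summed to between 541 and 728 CPM in ChR2 and between 90.4 and 441 CPM in wild type. Of these, 5 of 6 were called higher in ChR2, as were 14% of all genes. Those of fibroblasts summed to between 3816 and 4584 CPM in ChR2 and between 984 and 4269 CPM in wild type. Of the 8 fibroblast markers 6 were tested and 3 of them called higher, while Thy1 and Lum were under 1 CPM throughout. Macrophage markers summed to at most 16.2 CPM in any well, and Ptprc, Adgre1, Csf1r and Tyrobp were under 1 CPM throughout, Tyrobp at 0. The part of these differences in the results below was not tested, and in bulk RNA fewer cells of a kind and less RNA per cell cannot be told apart.

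All 10 members had a lower fitted level in ChR2, and the wild-type wells fell far apart from each other. Below 0 lay 51.8% of all genes tested. The median log2 fold change of ChR2 over wild type was -1.55 over the members and -0.02 over all genes, and 8 of 10 members were at -1 or lower, as were 2.63% of all genes. Every wild-type well lay above every ChR2 well for 4 members, Nqo1, Hmox1, Gclc and Aldh3a1, where 6.52% of all genes showed this order. Without wild-type wells 2 and 5 the members' median was -1.30, 7 of 10 were at -1 or lower (1.98% of all genes), and the same 4 members did not overlap (10.3% of all genes). These shares describe members that were chosen on this contrast, and nothing is read from them.

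**Figure D1:**
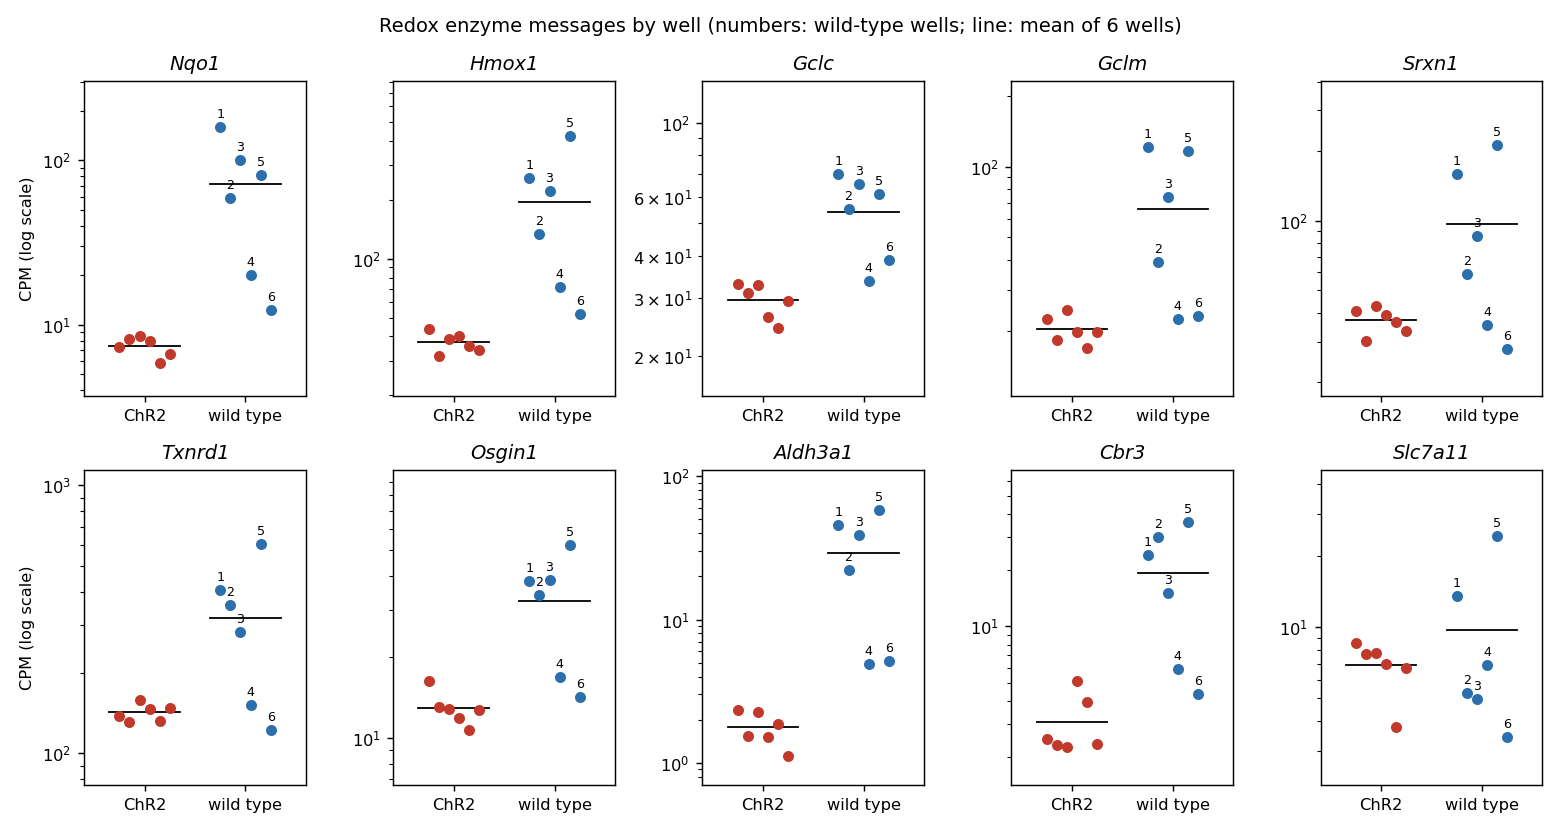
Level of each of the 10 members in each well, in CPM on a log axis, with ChR2 wells and wild-type wells in separate columns and wild-type wells numbered. The ChR2 wells span at most 2.252-fold, for Slc7a11, and the highest wild-type well is well 1 or 5 and the lowest well 4 or 6 for each member.

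Nqo1 and Hmox1, the quinone and heme enzymes, showed large differences without overlap. NQO1 reduces quinones by 2 electrons, which avoids the semiquinone radical. Nqo1 lay between 5.90 and 8.55 CPM in the ChR2 wells, with a median of 7.66 CPM. In wild type it stood at 159 CPM in well 1, 59.0 in well 2, 101 in well 3, 20.2 in well 4, 81.7 in well 5 and 12.3 in well 6. The lowest wild-type well was therefore above every ChR2 well, but the wild-type wells themselves spanned 12.9-fold. ChR2 averaged 7.44 ± 1.02 CPM and wild type 72.1 ± 54.6 CPM (SD, n = 6 each), a log2 fold change of -3.29 with a standard error of 0.53, and it was -3.28 without wells 2 and 5.

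HMOX1 opens the heme ring and releases iron, carbon monoxide and biliverdin. Hmox1 lay between 31.7 and 43.8 CPM in ChR2, with a median of 37.5 CPM. Its wild-type levels were 257 CPM in well 1, 134 in well 2, 222 in well 3, 71.8 in well 4, 424 in well 5 and 51.9 in well 6. The lines did not overlap, and wells 4 and 6 came nearest to ChR2. The means were 37.5 ± 4.36 and 193 ± 139 CPM (SD, n = 6 each), with a log2 fold change of -2.37 (SE 0.41), or -1.98 (SE 0.42) without wells 2 and 5.

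Aldh3a1 and Cbr3, the aldehyde and carbonyl enzymes, were both under 6 CPM in every ChR2 well. ALDH3A1 oxidises aldehydes, lipid peroxidation products among them, and is best known from the cornea. Aldh3a1 was low in all ChR2 wells, between 1.12 and 2.34 CPM with a median of 1.70 CPM, and its smallest ChR2 value rested on 11 counts. In wild type it stood at 45.5 CPM in well 1, 22.3 in well 2, 38.7 in well 3, 4.90 in well 4, 58.5 in well 5 and 5.13 in well 6. No wild-type well reached down to the ChR2 range, and wells 4 and 6 were far below wells 1, 3 and 5. The fitted log2 fold change of -4.01 (SE 0.61) was the largest of the set in size, and it was -3.69 (SE 0.71) without wells 2 and 5. On log2(TPM + 1), which understates differences of low genes, it was -2.39, and -2.87 after rescaling.

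CBR3 is a cytosolic NADPH-dependent carbonyl reductase. Cbr3 lay between 2.26 and 5.08 CPM in ChR2, where wells 4 and 5 were the highest at 5.08 and 3.96 CPM. Its wild-type levels were 24.2 CPM in well 1, 30.2 in well 2, 15.02 in well 3, 5.90 in well 4, 36.4 in well 5 and 4.33 in well 6. Well 6 lay inside the ChR2 range and the other five wells above it. The log2 fold change was -2.53 (SE 0.48), or -1.98 (SE 0.46) without wells 2 and 5.

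The subunits of glutamate-cysteine ligase, which makes the first bond of glutathione, differed unequally. GCLC is the catalytic subunit. Gclc lay between 24.3 and 32.9 CPM in ChR2, with a median of 30.2 CPM, and stood at 70.1, 55.1, 65.4, 33.6, 61.0 and 38.8 CPM in wild-type wells 1 to 6. The lines did not overlap, yet well 4 came within 1 CPM of the highest ChR2 well. Its log2 fold change was -0.87 (SE 0.18), and its wild-type wells spanned 2.09-fold, the least of the 10 members.

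GCLM is the modifier subunit, which raises the activity of the catalytic one. Gclm lay between 16.9 and 24.7 CPM in ChR2, with a median of 19.8 CPM. In wild type it stood at 122 CPM in well 1, 39.3 in well 2, 74.5 in well 3, 22.6 in well 4, 117 in well 5 and 23.3 in well 6. Wells 4 and 6 lay inside the ChR2 range and the other four above it. The log2 fold change was -1.72 (SE 0.39), or -1.55 (SE 0.46) without wells 2 and 5. Some Gclm counts were not whole, as happens where reads are divided between sequences.

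SLC7A11 is the light chain of the exchanger that brings cystine in for glutathione, and it is known as a target of both NRF2 and ATF4. Slc7a11 lay between 3.80 and 8.56 CPM in ChR2, with a median of 7.36 CPM. In wild type it stood at 13.5 CPM in well 1, 5.24 in well 2, 4.98 in well 3, 6.89 in well 4, 24.3 in well 5 and 3.45 in well 6. Only wells 1 and 5 lay above the ChR2 wells, well 6 lay below them, and the value of well 2 rested on 4 counts. The log2 fold change was -0.46 (SE 0.40) and -0.04 (SE 0.34) without wells 2 and 5, and leaving out well 1 or well 5 alone gave -0.29 and -0.03. Its counts were also partly not whole.

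The thioredoxin branch held the member with the highest mean TPM, a length-scaled level, in ChR2. TXNRD1 is the cytosolic selenoenzyme that reduces thioredoxin. Txnrd1 lay between 131 and 158 CPM in ChR2, with a median of 142 CPM, the narrowest range of the set at 1.20-fold. In wild type it stood at 406 CPM in well 1, 357 in well 2, 284 in well 3, 152 in well 4, 602 in well 5 and 122 in well 6. Well 4 lay inside the ChR2 range and well 6 below it. The log2 fold change was -1.17 (SE 0.30), or -0.74 (SE 0.28) without wells 2 and 5.

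SRXN1, sulfiredoxin, repairs over-oxidised peroxiredoxins. Srxn1 lay between 30.3 and 42.6 CPM in ChR2, with a median of 37.9 CPM. In wild type it stood at 159 CPM in well 1, 59.0 in well 2, 85.9 in well 3, 35.3 in well 4, 212 in well 5 and 27.9 in well 6. As for Txnrd1, well 4 lay inside the ChR2 range and well 6 below it. The log2 fold change was -1.38 (SE 0.41), or -1.03 (SE 0.44) without wells 2 and 5.

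OSGIN1 is a growth inhibitor induced by oxidative stress. Osgin1 lay between 10.7 and 16.3 CPM in ChR2, with a median of 12.7 CPM, and stood at 38.4, 34.1, 38.8, 16.8, 52.5 and 14.2 CPM in wild-type wells 1 to 6. Well 6 lay inside the ChR2 range, and well 4 was above the highest ChR2 well by less than 1 CPM. Its log2 fold change was -1.30 (SE 0.27), or -1.04 (SE 0.28) without wells 2 and 5. Srxn1 and Osgin1, whose windows share TGAGTCAGC, had fitted differences within 1 standard error of each other, as did Srxn1 and Txnrd1, whose windows do not share it.

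The wild-type wells ranked alike across the members. Taken as a ratio to the ChR2 mean of each gene, the median over the 10 members was 5.14 in well 1, 2.58 in well 2, 3.34 in well 3, 1.22 in well 4, 5.72 in well 5 and 1.23 in well 6. Well 5 was the highest wild-type well for 7 members and well 1 for the other three, while well 6 was the lowest for 7 members and well 4 for the other three. Over all genes tested, well 5 was the highest wild-type well for 23.3%. Among the deeper wells, 1 and 3 were both above 4 and 6 for 9 of 10 members, Slc7a11 being the exception, and this order held for 29.7% of all genes tested. Well 6 lay inside the ChR2 range for 3 members and for 41.9% of all genes. Well 4 did so for 4 members and for 47.6% of all genes, so lying inside that range is no trait of the members. The rule already used the unevenness of Nqo1, Hmox1 and Aldh3a1, so the shared order is a description. Of the shallow and 7SL-rich wells, 5 was at the top and 2 in the middle, so high levels were found both in a shallow library and in well 1, whose total and 7SL share were like those of the deeper libraries.

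**Figure D2:**
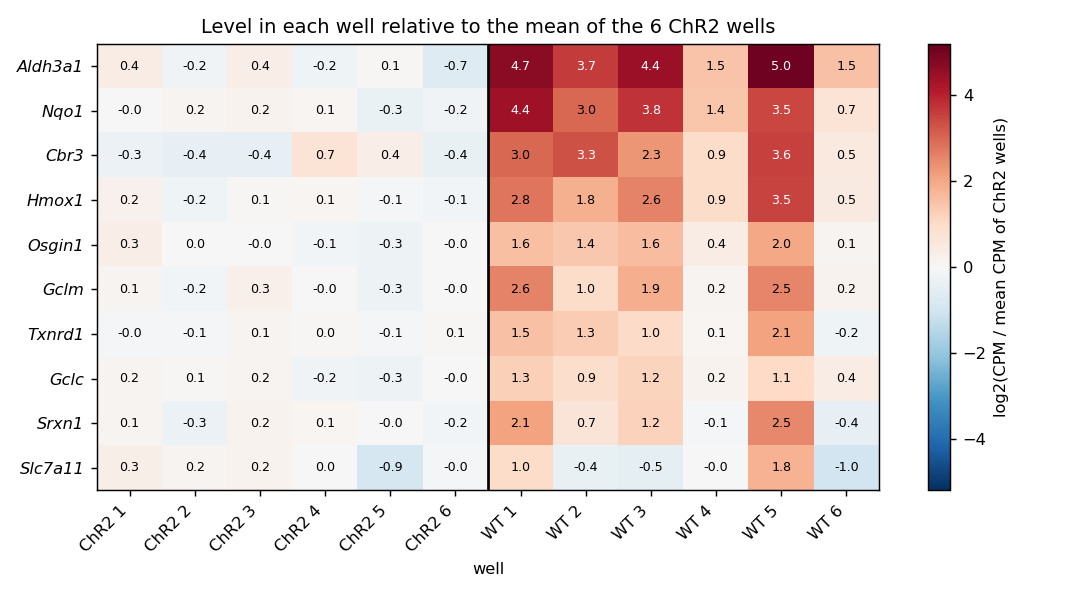
Each cell is the log2 ratio of a member's CPM in a well to the mean of that member over the 6 ChR2 wells, with members in rows and the 12 wells in columns. Wild-type wells 1, 3 and 5 are high for most members, wells 4 and 6 are near the ChR2 wells for most, and Slc7a11 departs from the rest in wells 2 and 3.

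The members' median spread was wide in wild type and near that of all genes in ChR2. The rule used the unevenness of Nqo1, Hmox1 and Aldh3a1 between wild-type wells, so these values are a description. The median coefficient of variation of the members was 69.9% over the wild-type wells, against 29.6% over all genes, and without wells 2 and 5 it was 71.7% against 16.2%. In ChR2 it was 13.8%, against 11.7% over all genes. Cbr3 was the most variable member in ChR2, at 38.2%, and Txnrd1 the least, at 7.14%. Cbr3, Aldh3a1 and Slc7a11 varied more in ChR2 than 95.9%, 88.9% and 86.2% of all genes. They were also the members with the lowest ChR2 means, at 3.08, 1.77 and 6.93 CPM. Their smallest ChR2 counts were 18, 11 and 46.6, so counting error adds to their spread, and its share was not tested. Gclc was the least variable member in wild type, at 27.3%, below the 29.6% of all genes. Without wells 2 and 5 it was at 35.5%, above the 16.2% of all genes.

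Levels per transcript length place the members on a common scale. In TPM, counts scaled to transcript length and then to library size, the ChR2 means were 64.5 for Txnrd1, 34.8 for Hmox1, 23.4 for Gclm, 18.7 for Srxn1, 11.6 for Gclc, 9.70 for Osgin1, 6.96 for Nqo1, 3.93 for Cbr3, 1.62 for Aldh3a1 and 0.974 for Slc7a11. Ranges of neighbours in this order overlapped, as for Gclc, from 9.29 to 14.6 TPM, and Osgin1, from 7.47 to 14.2 TPM, except between Txnrd1 and Hmox1, Srxn1 and Gclc, and Cbr3 and Aldh3a1. In wild-type wells 1, 3, 4 and 6 Hmox1 averaged 150.0 ± 108 TPM, Txnrd1 116 ± 65.8 TPM, Nqo1 74.0 ± 71.9 TPM and Gclm 73.1 ± 60.2 TPM (SD, n = 4). Nqo1 thus stood below Gclm in ChR2 and beside it in these wild-type wells, where the spread was far wider than the gap between them. TPM of wells 2 and 5 were lowered for every gene by the 7SL share and are not averaged here.

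Ratios within a well do not depend on the library's scale, and 7 pairs of a member with a partner or relative were formed. The ratio of Gclm to Gclc in TPM was between 1.83 and 2.29 in ChR2, 5.01 in wild-type well 1, 3.32 in well 3 and 4.6 in well 5, but 1.75 in well 4 and 1.76 in well 6. Well 2 gave 6.47 in TPM, yet its ratio of estimated counts was 0.718, inside the ChR2 range of 0.591 to 0.756, and it rested on 30.2 and 42.0 counts. The conversion from counts to length-scaled values for this pair was 9.0 in well 2 and between 2.41 and 3.10 in the other 11 libraries, so well 2 is not placed by this ratio. For the exchanger, the TPM ratio of Slc3a2, its heavy chain, to Slc7a11 was between 144 and 325 in ChR2, 63.0 in wild-type well 1 and 44.9 in well 5, while wells 3, 4 and 6, at 178, 157 and 214, lay inside the ChR2 range. Well 2 was at 19.9 in TPM but at 43.7 in counts, on 4 counts of Slc7a11.

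HMOX2 is the constitutive heme oxygenase. The TPM ratio of Hmox1 to Hmox2 was between 0.642 and 1.11 in ChR2 and 6.84, 1.59, 4.94, 1.74, 6.75 and 1.37 in wild-type wells 1 to 6, so every wild-type well was above ChR2. TXNRD2 is the mitochondrial thioredoxin reductase. The TPM ratio of Txnrd1 to Txnrd2 was between 4.99 and 6.38 in ChR2 and 25.3, 14.2, 11.1, 5.93, 48.1 and 6.4 in wild-type wells 1 to 6, where Txnrd2 rested on 13 counts in well 2 and 15 counts in well 5. NQO2 is a related quinone reductase that does not use NADPH. Nqo1 over Nqo2 was between 0.172 and 0.311 in ChR2, and in wild type it was highest in wells 1 and 2, at 4.30 and 6.31, and lowest in well 6, at 0.273, inside the ChR2 range. In counts the well 2 ratio was 2.37, below the 3.49 of well 1.

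Cbr1 encodes a second cytosolic carbonyl reductase beside Cbr3, and Aldh3a2 the fatty aldehyde dehydrogenase of the endoplasmic reticulum. The TPM ratio of Cbr3 to Cbr1 was between 0.106 and 0.248 in ChR2, between 0.529 and 0.908 in wild-type wells 1, 2, 3 and 5, and 0.214 and 0.158 in wells 4 and 6. Aldh3a1 over Aldh3a2 ran from 0.0410 to 0.104 in ChR2 and reached between 0.814 and 1.44 in wild-type wells 1, 2, 3 and 5. The ratio was 0.178 in well 4 and 0.281 in well 6, still above every ChR2 well. Of the relatives, Hmox2, Txnrd2, Nqo2 and Aldh3a2 had log2 fold changes of -0.21, 0.23, -0.10 and -0.11 and did not pass the threshold in edgeR's quasi-likelihood test (adjusted p of 0.386, 0.403, 0.677 and 0.605), and Cbr1 was lower in ChR2 by a log2 fold change of -0.76 (adjusted p = 0.00315).

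**Figure D3:**
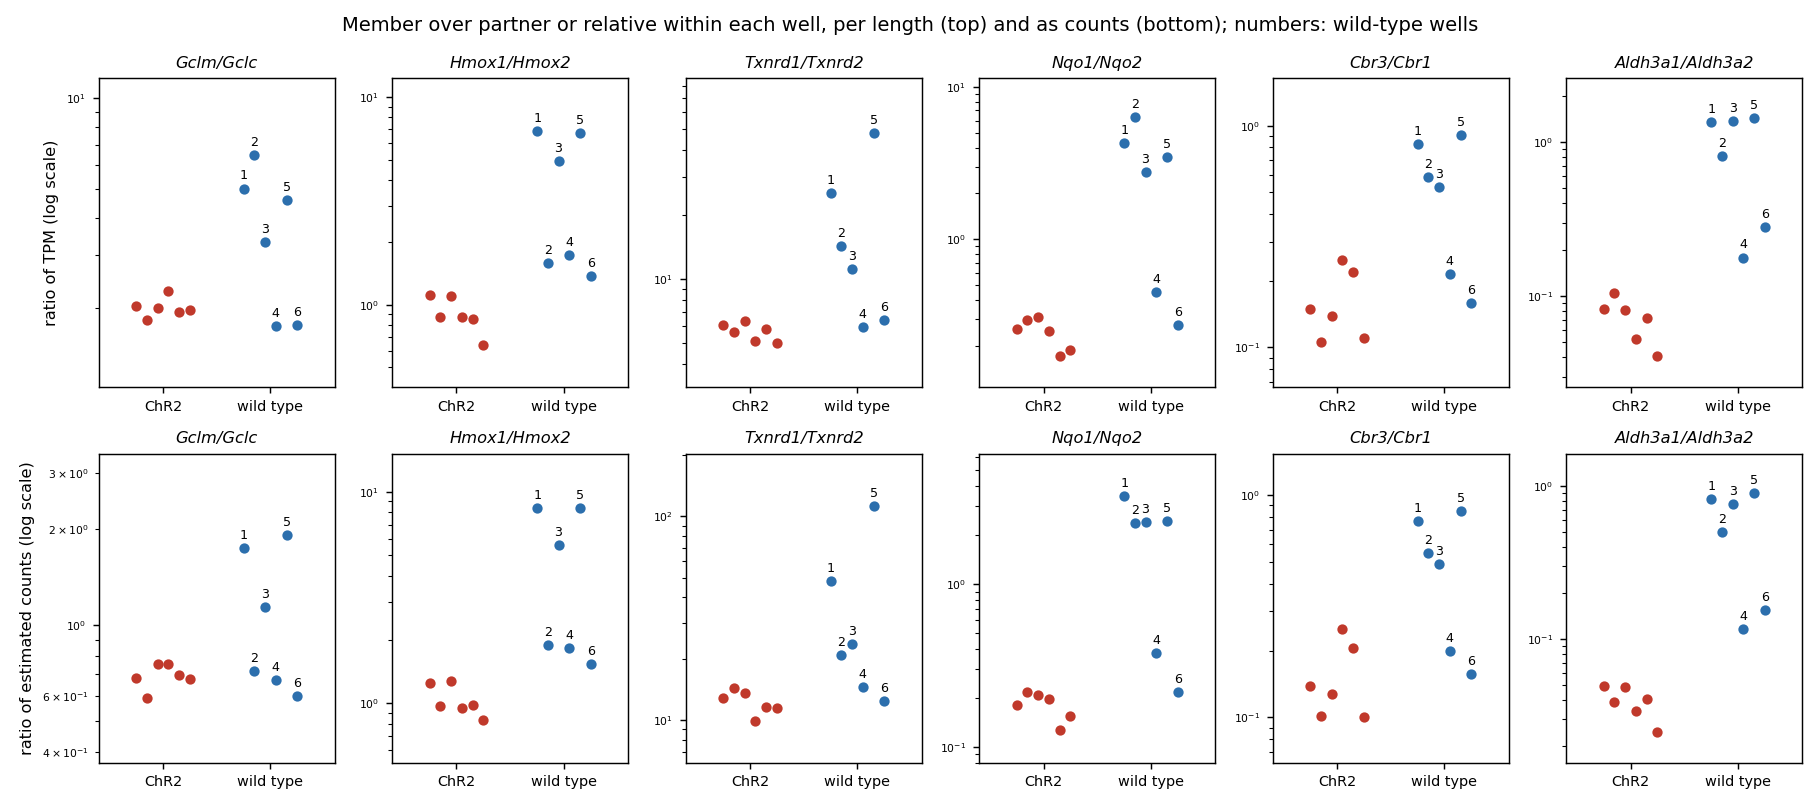
Ratio of 6 of the members to a partner or relative within each well, on log axes, from TPM in the upper row and from estimated counts in the lower row, with wild-type wells numbered. Wild-type wells 1, 3 and 5 lie above the ChR2 wells in every panel, and well 2 changes place between the rows for Gclm over Gclc.

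The regulators of the pathway did not share 1 direction. Across all genes 28.1% were called changed between the lines by edgeR at an adjusted p under 0.05, 14% higher in ChR2 and 14.1% lower. Without wild-type wells 2 and 5 the shares were 35.2%, 18.9% and 16.3%. Of 14 regulators, 1 rose and 4 fell in ChR2 (median log2 fold change -0.22), and without wild-type wells 2 and 5 these counts were 1 and 2. The 1 that rose averaged under 5 CPM in both lines, below the limit for naming a gene here. The ChR2 wells averaged 132 ± 10.6 CPM of Nfe2l2 and the wild-type wells 122 ± 42.4 CPM (SD, n = 6 each). Its log2 fold change of 0.09 (SE 0.20, adjusted p = 0.786 by edgeR) turned to -0.039 without wild-type well 2 and to -0.097 without wells 2 and 5. Keap1 was at 46.1 ± 4.46 and 57.5 ± 15.5 CPM, with -0.28 (SE 0.16, adjusted p = 0.198), and -0.43 on the rescaled TPM scale. On the unrescaled one it was 0.054 and 0.062 in the filtered fits, below the medians of all genes there, 0.35 and 0.43.

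Bach1, the repressor at antioxidant response elements and itself known as an NRF2 target, fell in ChR2. It was between 48.8 and 59.9 CPM in ChR2 and at 109, 155, 106, 68.4, 169 and 62.3 CPM in wild-type wells 1 to 6, so the lines did not overlap and wells 4 and 6 were again nearest to ChR2. Its log2 fold change was -0.98 (SE 0.21, adjusted p = 0.00428) and -0.61 without wells 2 and 5. Sqstm1, which encodes the p62 protein that sequesters KEAP1, fell by a log2 change of -1.30 (SE 0.28, adjusted p = 0.00387), with 5 of 6 wild-type wells above ChR2 and well 6, at 244 CPM, inside. Mafg, which encodes a small MAF partner, was at -0.58 (adjusted p = 0.0308), and leaving out ChR2 well 1, 2, 3, 4 or 5 ended this call, as did leaving out well 1, 2 or 5 of the wild type, with an adjusted p of up to 0.0688, and it was -0.31 (adjusted p = 0.120) without wells 2 and 5.

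Other NRF2 targets fell more often than they rose. Of 31 tested genes of this list, 15 fell and 2 rose (48.4% and 6.45%, against 14.1% and 14% of all genes). Their median was -0.58. Without wild-type wells 2 and 5, 12 fell and 2 rose (16.3% and 18.9% of all genes). Earlier results of these data were known when the list was written, so its direction is not independent evidence. Slc48a1, a heme transporter, fell by -1.70 on the log2 scale (adjusted p = 0.00306), and its wild-type wells ranked in the same order as those of Hmox1, from 249 CPM in well 5 to 47.7 CPM in well 6. Esd, an S-formylglutathione hydrolase, was at -1.59 (adjusted p = 0.00170), Gsr, glutathione reductase, at -1.48 (adjusted p = 0.00401), and Prdx6, a peroxiredoxin that uses glutathione, at -1.19 (adjusted p = 0.00189). Ugdh, which makes UDP-glucuronate, rose by 0.82 (adjusted p = 0.00197), with all 6 wild-type wells below ChR2. Without wells 2 and 5 the calls of Pgd, Adh7, Ptgr1 and Blvrb, at -1.46, -1.23, -1.07 and -1.48, were lost (adjusted p of 0.0547, 0.0855, 0.0705 and 0.162), and Prdx1, at -0.67 over 12 libraries (adjusted p = 0.0719), was called at -0.85 (adjusted p = 0.0106). The call of Blvrb, a biliverdin reductase, was also lost without ChR2 well 1, 3 or 5 or without well 1, 2 or 5 of the wild type, with an adjusted p of up to 0.0813.

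**Figure D4:**
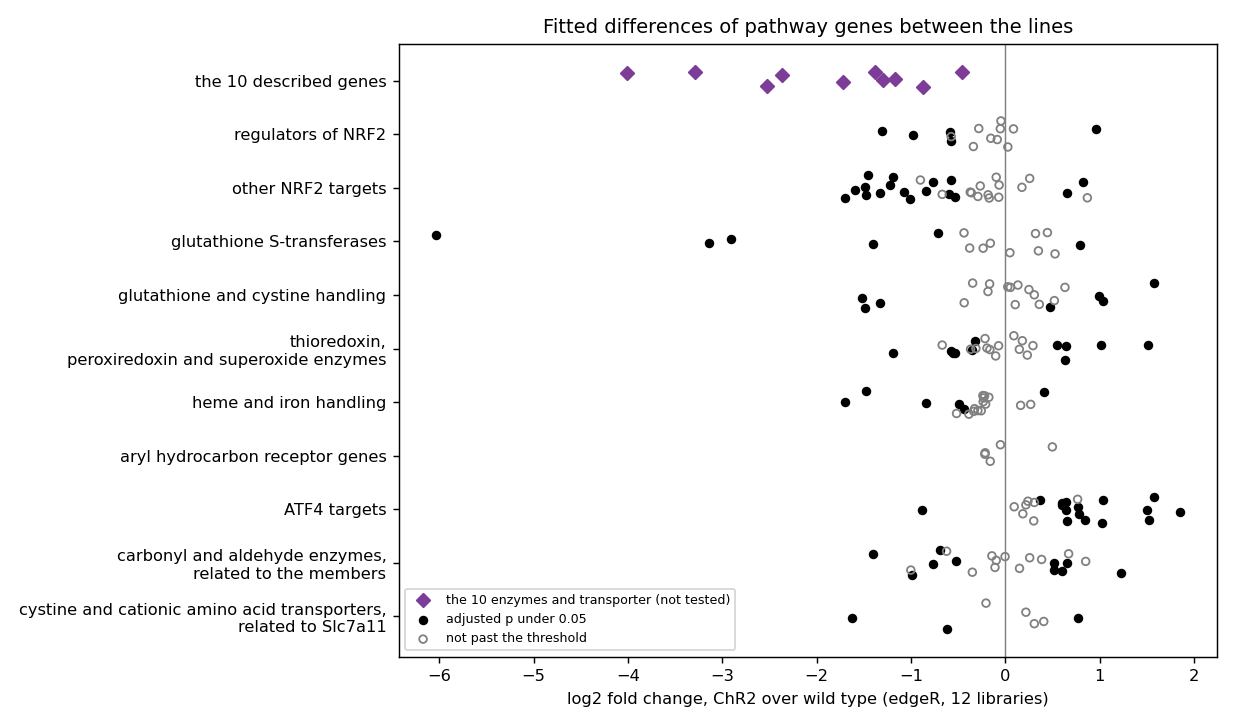
Fitted log2 fold change of ChR2 over wild type for every tested gene of the pathway lists and for the 10 members, 1 row for each list, with called genes marked. Most called genes among other NRF2 targets lie below 0 and most called ATF4 targets above it, and the members span from -4.01 to -0.46.

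Genes of glutathione and cystine handling moved both ways, and their list shares genes with others. Gsr and Gss, among its falls, are also counted with other NRF2 targets, and Cth and Chac1, among its rises, with ATF4 targets. Among 20 tested genes of glutathione and cystine handling, 4 rose and 3 fell (20% and 15%, against 14% and 14.1% of all genes). Their median was 0.12. Without wells 2 and 5 there were 6 and 3 (18.9% and 16.3% of all genes), with a median of -0.03. Gss, which completes glutathione after the ligase of Gclc and Gclm, fell by -1.33 (adjusted p = 0.000237). Gpx3, a secreted glutathione peroxidase, fell by -1.52 (adjusted p = 0.00216), but its wild-type order was opposite to that of the members: wells 4 and 6 were the highest, at 201 and 156 CPM, and wells 5 and 1 the lowest, at 50.3 and 53.9 CPM. Cth, which makes cysteine from cystathionine, rose by 1.58 (adjusted p = 0.00267), and Chac1, which degrades glutathione, by 1.04 (adjusted p = 0.00342), both without overlap between the lines.

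Slc3a2 encodes the heavy chain that carries SLC7A11. It was at 0.31 (adjusted p = 0.0972), and at 0.49 (adjusted p = 0.00221) without wells 2 and 5. Among 7 tested relatives of Slc7a11, 1 rose and 2 fell (14.3% and 28.6%, against 14% and 14.1% of all genes). Without those wells 3 rose and 2 fell (18.9% and 16.3% of all genes). Slc7a5, another light chain of the same heavy chain, rose by 0.77 (adjusted p = 0.000892). Of 23 tested ATF4 targets, a list that overlaps with amino acid transport, 15 rose and 1 fell (65.2% and 4.35%), with a median of 0.64. Without wells 2 and 5, 20 of 23 rose. Aldh1l2, a mitochondrial folate enzyme of this list, rose by 1.86 (adjusted p = 0.00122). Atf4 itself was at 0.37 (adjusted p = 0.0352), but leaving out any 1 ChR2 well, or well 1, 3 or 5 of the wild type, ended this call, with an adjusted p of up to 0.0845. Slc7a11, whose window holds TGATGNAA on each strand and a TGAGNNNGC match, was at -0.46 (SE 0.40), or -0.03 without wild-type well 5. Slc7a11 was not tested against the list of NRF2 targets or that of ATF4 targets, and control by either factor was not tested.

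Thioredoxin, peroxiredoxin and superoxide enzymes also divided, with 5 of 24 higher and 6 lower (20.8% and 25%). Of all genes 14% were called higher and 14.1% lower. Without wells 2 and 5 there were 7 and 6, where the shares of all genes were 18.9% and 16.3%. Sod3, the extracellular superoxide dismutase, rose by 1.51 (adjusted p = 0.00202), and Msra, which reduces oxidised methionine, by 1.02 (adjusted p = 0.00349). Of 20 heme and iron genes, 1 rose and 5 fell over 12 libraries (5% and 25%), and 1 and 5 also without wells 2 and 5. There Blvrb was no longer called and Fech, which inserts iron into heme, was (adjusted p of 0.0778 and then 0.0197). Among 22 carbonyl and aldehyde enzymes 5 rose and 5 fell (22.7% each). Aldh18a1, which acts in proline synthesis, was at 1.23 (adjusted p = 0.000695), whereas Aldh1a3, a retinal dehydrogenase, was at -1.41 (adjusted p = 0.00839) and Aldh3b1 at -0.99 (adjusted p = 0.00184).

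Nqo1 and Aldh3a1 are also classical targets of the aryl hydrocarbon receptor. Of the 5 tested genes of that receptor's list, Tiparp was at -0.21 (adjusted p = 0.416) over 12 libraries and at -0.36 (adjusted p = 0.0100) without wells 2 and 5, where it alone was called. It was at 0.21 and 0.26 in the filtered fits on the unrescaled TPM scale, below the medians of all genes there, and at -0.24 on the rescaled one. Cyp1b1, also of this list, went the other way and was not called. It was at 0.50 (adjusted p = 0.149), or 0.53 (adjusted p = 0.173) without wells 2 and 5. Of 15 tested glutathione S-transferases, 5 fell and 1 rose (33.3% and 6.67%, against 14.1% and 14% of all genes). Gsta4 fell from 186 ± 139 CPM in wild type to 20.9 ± 1.09 CPM in ChR2, with wild-type wells 4 and 6 at 26.8 and 29.2 CPM. Gsta1 was between 0.771 and 1.89 CPM in ChR2 and between 5.23 and 211 CPM in wild type, and reads may be split with its near-identical relatives.

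Several lists share genes, Prdx6, Cat, Slc48a1 and Blvrb among them, so the counts of single lists are not independent of each other. Over all lists together, with each gene counted once and the members left out, 31 of 161 tested genes rose (19.3%) and 37 fell (23.0%). Of all genes 14% rose and 14.1% fell. Without wells 2 and 5, 41 and 32 of 162 did (18.9% and 16.3% of all genes). On log2(TPM + 1), where 7SL pushes down every other gene of wells 2 and 5, the split over all genes was 592 higher and 28 lower, in place of 1838 and 1863 in the count fit, and over the lists 9 and 4.

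The genes with the pattern most like Nqo1 were found from log2 CPM centred on each gene's mean, by the root mean square difference over the 12 libraries. They were Gsta4 at 0.458, Il1b at 0.719, Cst6 at 0.742, Slc48a1 at 0.773 and Gstp2 at 0.786, and over the 10 libraries without wells 2 and 5 they were Gsta4 at 0.385, Trdc and Il1b at 0.611, Gstp2 at 0.662 and Plet1 at 0.685. For Hmox1 they were Slc48a1 at 0.364, Gsr at 0.427, Cst6 at 0.452, Slc22a23 at 0.461 and Fbxo40 at 0.463. Slc48a1 and Cst6 stood in the lists of both members. For Slc7a11 they were Acsbg1 at 0.375, Faxc at 0.410, Abcc4 at 0.414, Gdpgp1 at 0.420 and Uhrf1bp1l at 0.424, none of which was among those of Nqo1 or Hmox1. Il1b and Trdc were low genes, at 8.47 ± 5.76 and 9.91 ± 7.60 CPM in wild type and under 3 CPM in every ChR2 well.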

How the data were processed

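RNA was read from 6 ChR2 and 6 wild-type wells, grouped by the genotype label and numbered as in the titles. Per the labels' protocols, RNA was selected by poly(A) tail, libraries took 14 PCR cycles and were read as pairs of 50 bases, and samples with little RNA were ribodepleted without being named. The authors deposited estimated counts per gene, which need not be whole, and TPM per gene. Tools named in the submitters' processing notes were STAR, Salmon, bedtools 2.25.0 and BWA 0.7.12-r1039, and builds GRCm39, mm10 and hg19, whose roles are not given in the sources used here, nor is the strand setting. Unused columns of values numbered 0.

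Counts were rounded, filtered by edgeR's filterByExpr (minimum count 10), scaled by TMM and tested by edgeR's quasi-likelihood test (edgeR 4.0.16, limma 3.58.1, R 4.3.3), on genotype alone, with p-values adjusted by Benjamini-Hochberg over all 13168 genes at 0.05. CPM use the scaled library sizes, and fold changes are ChR2 over wild type. The fit was tested on simulated data. Without molecular identifiers, depth sets a bound on counting error alone. Over 30 same-line pairs of libraries the lowest chi-square per degree of freedom, over genes with at least 10 counts, was 5.09, so each library counted once.

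Members and lists were chosen with earlier results of these data known. Besides the members, the genes named were up to 2 called rises and 2 called falls per list with at least 5 CPM in the higher line, 5 regulators in any case, and the 5 genes most like Nqo1, Hmox1 and Slc7a11. Gss, Pgd, Adh7, Ptgr1, Prdx1, Fech, Bach2, Cyp1b1 and the partners and relatives set against members lie outside this rule. They were chosen after their values were seen. Single results of some of these are not reported here. Listed symbols not found in the table numbered 1. Alternatives were DESeq2 1.42.0 and its size factors, upper-quartile scaling, other filters, limma on log2 TPM, and the replicate number as a block. Further ones were libraries left out, and removal of 7SL, 7SK (another small RNA), histone and mitochondrial transcripts. Figures were drawn with matplotlib 3.10.9.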

Additional observations from a re-analysis of the deposited data

Results flagged for a closer look

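Slc7a11 in ChR2 well 5 was at 3.80 CPM, apart from the other five ChR2 wells. The gap to its nearest neighbour took 0.702 of the group's range, above Dixon's 95% critical value for 6 samples. Of 20 groups examined, 10 members in each line, this was the 1 that passed, and chance flags about 1 in 20.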

How the results depend on the processing

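Over 24 other settings, 0 of 240 member values changed sign and 13 moved by more than 1 SD of log2 CPM between wells, pooled over the lines, 12 of them on a TPM scale before rescaling. Counts of called genes (3701, of which 68 in the pathway lists) ranged from 2822 to 4115 and from 51 to 75 with 1 library left out, and were 4749 and 73 without wild-type wells 2 and 5 and 4316 and 79 by DESeq2. The filtered log2(TPM + 1) gave 620 (592 higher, 28 lower) and 13 (9, 4), log2(TPM + 0.1) gave 271 (254, 17) and 9 (6, 3), and log2(TPM + 1) without a filter gave 425 (402, 23) and 9 (5, 4). The median of all genes then stood at 0.35, 0.43 and 0.08. After 7SL, 7SK, histone and mitochondrial transcripts were removed together and TPM rescaled, 2130 genes were called, 888 higher, with 20 of the lists higher. This alternative was chosen after seeing the data. Deviations of same-numbered wells correlated between -0.144 and 0.0954. The labels do not say that a number pairs wells, and these correlations cannot exclude it, since wild-type wells 2 and 5 differed in depth and 7SL. A fit with a replicate block called 2641 genes, 1171 of them lower, and 50 of the lists, 24 of them lower. Keap1 (0.054, 0.062 and 0.054) and Tiparp (0.21, 0.26 and 0.21) were positive on those 3 TPM scales, as was that median, and negative after rescaling (-0.43 and -0.24). The sign turned for Nfe2l2 (-0.039 without well 2, with up to 0.18 when any other library was left out, and -0.097 without wells 2 and 5). The cause was not tested. Shallow wells limit Slc7a11 most, with 4 counts in wild-type well 2.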
